A study of Mus musculus with 30 samples.

Results

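Parvalbumin (Pvalb), calretinin (Calb2) and neuronal calcium sensor 1 (Ncs1) are 3 genes for calcium-binding proteins, followed here in mouse embryonic stem (ES) cells that keep or lose the transcription factor Esrrb. They were chosen by symbol, 3 of the 20300 genes with exonic counts, and they were selected on their response to Esrrb withdrawal in these same libraries. Their own withdrawal values are therefore a description and carry no test. Of the 14559 Esrrb ChIP-seq peaks, 5 had their centre within 50 kb of one of the 3 starts. All 3 genes passed the filter on low counts in exons and in introns.

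The cells were ES cells of strain 129/Ola, kept in serum with LIF. For RNA-seq (stranded mRNA libraries), cells of the line EKOiE-Ccna-Gfp were sorted by a Ccna2-Gfp reporter into early G1, late G1 and G2, each with doxycycline (DOX) or after 24 h of DOX withdrawal, 3 libraries for each of the 6 groups. The endogenous Esrrb of EKOiE is knocked out and a transgene makes Esrrb under DOX, so all 18 RNA-seq libraries lack the normal control of Esrrb, and no wild-type RNA was compared. Esrrb ChIP-seq of EKOiE held 4 asynchronous (interphase) and 4 mitotic libraries with DOX, and 2 of each after 48 h of withdrawal, except that replicate 2 of both DOX groups came from wild-type E14Tg2a cells. Whether libraries of 1 group are separate cultures is not in the labels, and p-values here measure only how far these samples spread, which may be technical.

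Proteins of the EF-hand superfamily hold calcium in helix-loop-helix motifs. Some, such as parvalbumin and calretinin, act mainly as buffers that bind free calcium and shape its transients. Others, such as the neuronal calcium sensors, change shape on binding and pass the signal to partner proteins. Parvalbumin is best known from fast-twitch muscle fibres and fast-spiking interneurons, calretinin from other interneurons, and neuronal calcium sensor 1 from synapses, where it regulates exocytosis, ion channels and a lipid kinase. Esrrb is an orphan nuclear receptor of the pluripotency network that binds DNA as a monomer at extended half-sites.

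Each RNA-seq library held between 11.1 and 31.8 M exonic and between 6.1 and 20.8 M intronic counts (M: mega), and each ChIP-seq library between 10.7 and 67.5 M reads. Levels are in CPM, counts-per-million of the TMM-adjusted library size, which can differ from the totals above. Esrrb itself stood in early G1 at 242 ± 37.8 CPM with DOX and at 162 ± 27.2 after withdrawal (SD, n = 3). The same pair of values was 317 ± 28.3 and 165 ± 7.21 for late G1, and 273 ± 27 and 190 ± 6.67 for G2. Its mean was lower after withdrawal in each phase, and no test of a difference in this response between phases passed (edgeR). The log2 change of -0.94 ± 0.14 in late G1 passed (SE, edgeR adjusted p = 0.00385), while -0.58 in early G1 (0.12) and -0.52 in G2 (0.0699) missed the threshold. A fit that compares same-numbered libraries (the replicate number as a block) put each phase past it (edgeR adjusted p = 0.0138, 0.000395 and 0.0123). Intronic Esrrb stood at 87 to 128 CPM over the 18 libraries, and its log2 changes of -0.11, -0.14 and -0.12 did not pass (edgeR adjusted p = 0.972, 0.997 and 0.873). In exons, transgene reads and reads from what remains of the knocked-out gene cannot be told apart. All 10 markers of ES cell identity passed the filter, with a summed level of 4630 to 6560 CPM per library, led by Dppa5a. Summed levels were 180 to 361 CPM for 21 markers of neurons and interneurons (11 passed), 132 to 260 for 10 of skeletal muscle (7 passed), 277 to 430 for 10 of primitive endoderm (10 passed) and 9.39 to 17.2 for 10 of fibroblasts and feeders (3 passed), and no marker of these lists was at 0 in all libraries.

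The promoter sequences are shown because the 3 genes were lower together after withdrawal and Esrrb peaks stood on both sides of the Pvalb start. They come from RefSeq on build GRCm38.p6, where 2 of the 3 genes have an entry. Each line gives the 250 bases before an annotated start, 5′ to 3′ on the gene's strand, in lower case with CG pairs in capitals.
Pvalb, first RefSeq start (chr15:78206401-78206650, minus strand): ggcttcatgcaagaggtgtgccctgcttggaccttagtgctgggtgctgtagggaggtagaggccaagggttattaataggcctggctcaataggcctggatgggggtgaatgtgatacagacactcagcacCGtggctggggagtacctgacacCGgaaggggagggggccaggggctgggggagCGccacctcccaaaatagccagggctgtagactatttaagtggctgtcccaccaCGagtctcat
Pvalb, second RefSeq start (chr15:78204238-78204487, minus strand): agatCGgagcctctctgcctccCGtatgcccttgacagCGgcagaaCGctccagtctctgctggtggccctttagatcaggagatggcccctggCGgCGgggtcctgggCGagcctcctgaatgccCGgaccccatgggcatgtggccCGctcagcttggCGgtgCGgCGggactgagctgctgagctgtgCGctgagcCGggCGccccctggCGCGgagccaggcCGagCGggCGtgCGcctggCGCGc
Ncs1 (chr2:31245673-31245922, plus strand): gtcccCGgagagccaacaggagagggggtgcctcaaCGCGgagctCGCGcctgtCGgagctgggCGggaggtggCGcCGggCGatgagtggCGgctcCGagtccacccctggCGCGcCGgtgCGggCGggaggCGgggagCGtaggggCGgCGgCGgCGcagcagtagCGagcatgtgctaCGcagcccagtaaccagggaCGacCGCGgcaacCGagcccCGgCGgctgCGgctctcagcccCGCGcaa
The first Pvalb sequence held 4 CG pairs and 58.4% G and C, the second 23 CG pairs and 71.6%, and the Ncs1 sequence 34 CG pairs and 75.6%, against medians of 6 CG pairs and 52.4% over the 32851 RefSeq promoters. Of all promoters, 44.4%, 88% and 97% held at most as many CG pairs as these 3. The Esrrb half-site AAGGTCA and its extended form TCAAGGTCA, which contains the shorter motif, were searched on both strands in windows from 250 bases before to 50 bases after each start. Neither was found in the 3 windows, while 4.72% and 0.423% of all promoter windows held them. Which of the 2 Pvalb starts on GRCm38.p6 corresponds to the transcript counted by the authors on mm9 was not determined, and no match says only that these letters are not in these windows.

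Pvalb carries parvalbumin, and it was detected in all 9 DOX libraries and close to absent after withdrawal. The counted transcript (NM_013645) lies on mm9 at chr15:78021547-78034586, minus strand. In early G1, exonic Pvalb stood at 4.43, 3.73 and 3.54 CPM with DOX (replicates 1 to 3) and at 0, 0.0557 and 0.0801 CPM after withdrawal, from 56, 43 and 67 against 0, 1 and 2 counts. In late G1 it stood at 4.36, 4.45 and 2.92 CPM with DOX and at 0.118, 0.241 and 0.295 after withdrawal, from 66, 53 and 48 against 2, 4 and 6 counts. In G2 it stood at 5.47, 5.27 and 3.82 CPM with DOX and at 0.0636, 0.115 and 0.155 after withdrawal, from 92, 58 and 73 against 2, 2 and 3 counts. All DOX libraries were high and all withdrawal libraries low, and the groups did not overlap in any phase. The share of all genes without overlap was not counted here or below, so non-overlap is only a description. The summed markers of neurons and interneurons, led by Stmn2, overlapped between the DOX states, at 260 to 273 against 180 to 287 CPM for early G1 (DOX against withdrawn), 271 to 352 against 223 to 281 for late G1 and 265 to 361 against 218 to 315 for G2, and their part in the Pvalb values was not tested. The summed markers of skeletal muscle, led by Acta1, were at 132 to 187 against 170 to 194 CPM for early G1. They were at 151 to 201 against 181 to 227 for late G1, and the DOX states overlapped in both phases. In G2 they were at 172 to 192 against 197 to 260, with the withdrawn libraries all higher. The part of these markers in the Pvalb values was not tested either. The ratio of withdrawn to DOX counts was scaled by TMM-adjusted library size. In early G1 it was 0.0127 (3 against 166 counts, 95% exact binomial interval 0.00259 to 0.0377). It was 0.058 in late G1 (12 against 167, 0.0294 to 0.104) and 0.0216 in G2 (7 against 223, 0.00859 to 0.0453). These intervals cover counting error only. Fewer cells with Pvalb RNA and less Pvalb RNA per cell cannot be told apart in these bulk libraries.

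Calb2 carries calretinin, a buffer with several EF-hands, and its level was lower after withdrawal in every phase, though it stayed detected in all libraries. Its transcript (NM_007586) lies on mm9 at chr8:112666437-112692106, minus strand. Exonic Calb2 stood at 13.5, 13.8 and 17.4 CPM with DOX in early G1 and at 7.76, 8.97 and 9.01 after withdrawal. In late G1 the values were 15.8, 13.2 and 13.6 CPM with DOX and 8.41, 8 and 9.01 after withdrawal. In G2 they were 15.3, 15.4 and 16.6 CPM with DOX and 7.06, 9.12 and 8.6 after withdrawal. The lowest DOX library of each phase was above the highest withdrawal library. Fitted log2 differences were -0.80, -0.74 and -0.94, each ± 0.15 (SE), in the same order of phases, and the ratios of counts were 0.565, 0.598 and 0.506.

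Ncs1 carries the calcium sensor, and of the 3 genes it had the smallest exonic difference in late G1 and G2. Its transcript (NM_019681) lies on mm9 at chr2:31101442-31150991, plus strand. Exonic Ncs1 stood at 13.7, 12.3 and 11.3 CPM with DOX in early G1 and at 7.49, 6.46 and 7.25 after withdrawal. In late G1 the values were 10.6, 11.1 and 10.8 CPM with DOX and 8.06, 7.04 and 7.73 after withdrawal. In G2 they were 9.22, 11.7 and 9.15 CPM with DOX and 6.01, 7.45 and 7.77 after withdrawal. Here too the groups did not overlap in any phase. The log2 differences were -0.81 ± 0.15, -0.50 ± 0.15 and -0.50 ± 0.15 (SE) in early G1, late G1 and G2, and the ratios of counts 0.577, 0.707 and 0.704.

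**Figure D1:**
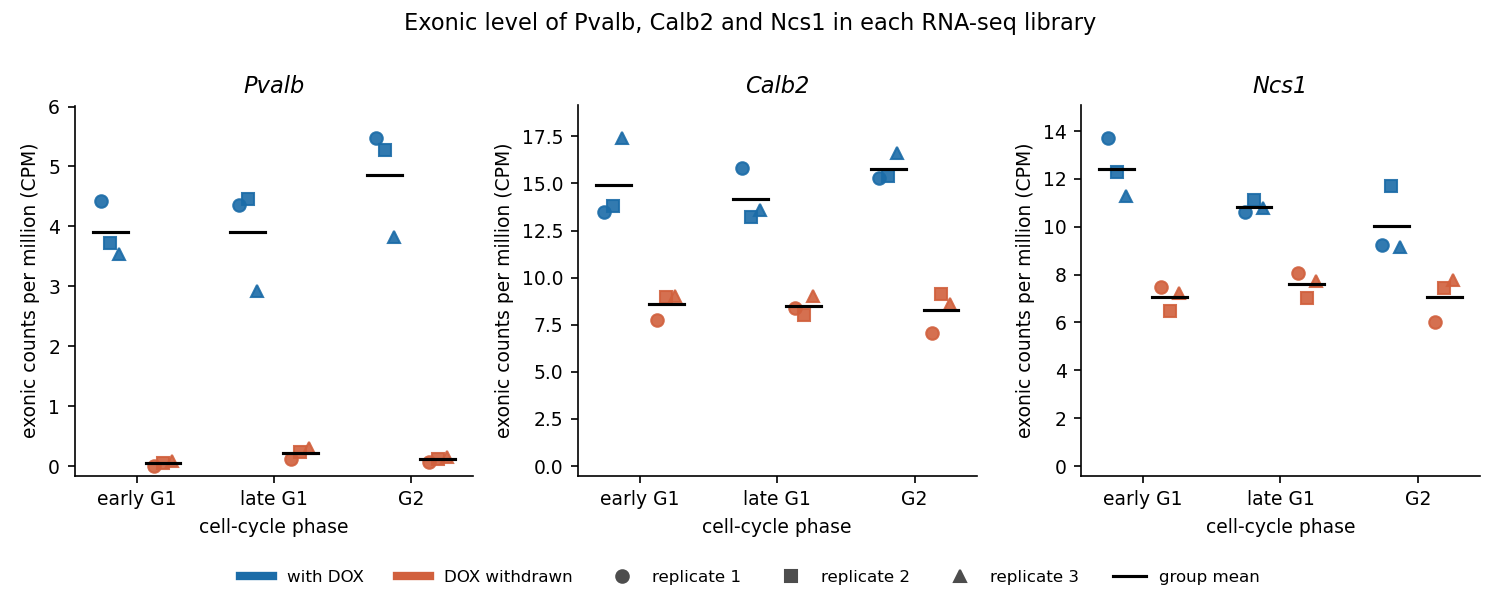
Exonic level in CPM (vertical axes, linear from 0, 1 scale per gene) of Pvalb, Calb2 and Ncs1 by phase, with DOX (blue) and after 24 h of withdrawal (orange). Each point is 1 library, its shape the replicate number, and each black line the mean of 3 libraries. Every DOX library is above every withdrawal library of its phase, and the withdrawal libraries of Pvalb sit between 0 and 0.295 CPM.

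The values that chose the genes were these: Pvalb and Calb2 passed the edgeR test (adjusted p under 0.05 over 14092 genes) in each phase, and Ncs1 in early G1 alone. The Ncs1 value in early G1 (edgeR adjusted p = 0.0434) and the Calb2 value there (0.0419) were just inside the threshold, and Ncs1 in late G1 (0.149) and G2 (0.124) was outside it. Over all genes tested, 0.121% fell and 0.0426% rose in early G1, 0.277% and 0.185% in late G1, and 0.632% and 0.341% in G2. The refits given next rerun the values that chose the genes and are no separate test of their response. Leaving out 1 library at a time, Pvalb passed in 6 of 6 fits in each phase. Calb2 passed in 0 of 6 in early G1, 0 of 6 in late G1 and 5 of 6 in G2, and Ncs1 in 0 of 6 in every phase, while all exonic differences stayed negative. The fit without G2 withdrawn replicate 1 was the one in which Calb2 missed in G2. In the blocked fit Pvalb, Calb2 and Ncs1 passed in each of the 3 phases, where 568 (early G1), 1274 (late G1) and 1580 (G2) genes were called in place of 23, 65 and 137. Of all genes tested, this fit had 2.2% fall and 1.83% rise in early G1, 4.24% and 4.8% in late G1, and 5.44% and 5.77% in G2.

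Reads in introns come mostly from unspliced RNA, and they were counted separately. Intronic Pvalb stood at 1.17, 1.39 and 1.31 CPM with DOX and at 0, 0.316 and 0.122 after withdrawal in early G1. It stood at 1.45, 1.96 and 1.98 against 0.188, 0.106 and 0 in late G1, and at 1.40, 1.73 and 1.28 against 0.326, 0.324 and 0.333 in G2. The groups did not overlap in any phase, as in exons, and the share of all genes without overlap in introns was not counted. Behind these values are 31, 45 and 38 counts per DOX group and 5, 3 and 14 per withdrawal group. The intronic ratio was 0.102 (0.031 to 0.265), 0.0516 (0.0103 to 0.161) and 0.23 (0.115 to 0.435). In G2 this interval lies wholly above that of the exons. Both intervals cover counting error only and leave out the spread between libraries, and the difference was not tested.

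Intronic Calb2 stood at 1.75, 0.924 and 2.72 CPM with DOX and at 2.26, 0.947 and 0.975 after withdrawal in early G1, where the groups overlapped. In late G1 they overlapped too, with 2.67, 2.41 and 1.25 CPM against 1.22, 0.956 and 1.52. In G2 they did not, with 2.09, 1.90 and 2.57 CPM against 0.605, 1.3 and 0.75, from 60 against 34 counts. The fitted log2 differences were -0.43, -0.74 and -1.39, with standard errors of 0.44, 0.44 and 0.45. With so few counts per library, the direction of intronic Calb2 in early and late G1 lies within the spread between libraries.

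Intronic Ncs1 had the most counts of the 3 genes, and its groups overlapped in every phase. It ranged between 12.3 and 13 CPM with DOX and between 8.84 and 13.7 after withdrawal in early G1. In late G1 these ranges were 12 to 19.6 and 8.55 to 14.6 CPM, and in G2 12.6 to 17.8 and 8.92 to 16.7. In these TMM-scaled values, replicate 1 was the highest library in all 6 groups. That order depends on the scaling. In early G1 with DOX, replicates 1 to 3 held 89, 80 and 136 Ncs1 counts of 10.29, 8.239 and 9.273 M intronic counts. The log2 differences of -0.14 ± 0.26, -0.41 ± 0.26 and -0.26 ± 0.25 (SE) were smaller than the exonic ones, and that gap between exons and introns was not tested. Over all 14075 genes tested in introns, 0%, 0.0142% and 0.0142% fell in early G1, late G1 and G2, and Pvalb was 1 of the 2 genes in late G1. That Pvalb call held in only 1 of 6 fits that left out 1 library (edgeR adjusted p up to 0.225). It comes from the contrast that chose the genes, read in introns, and is a description. At an unadjusted p under 0.05 the early G1 comparison held 806 genes (edgeR), and DESeq2 called 13 in either direction.

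**Figure D2:**
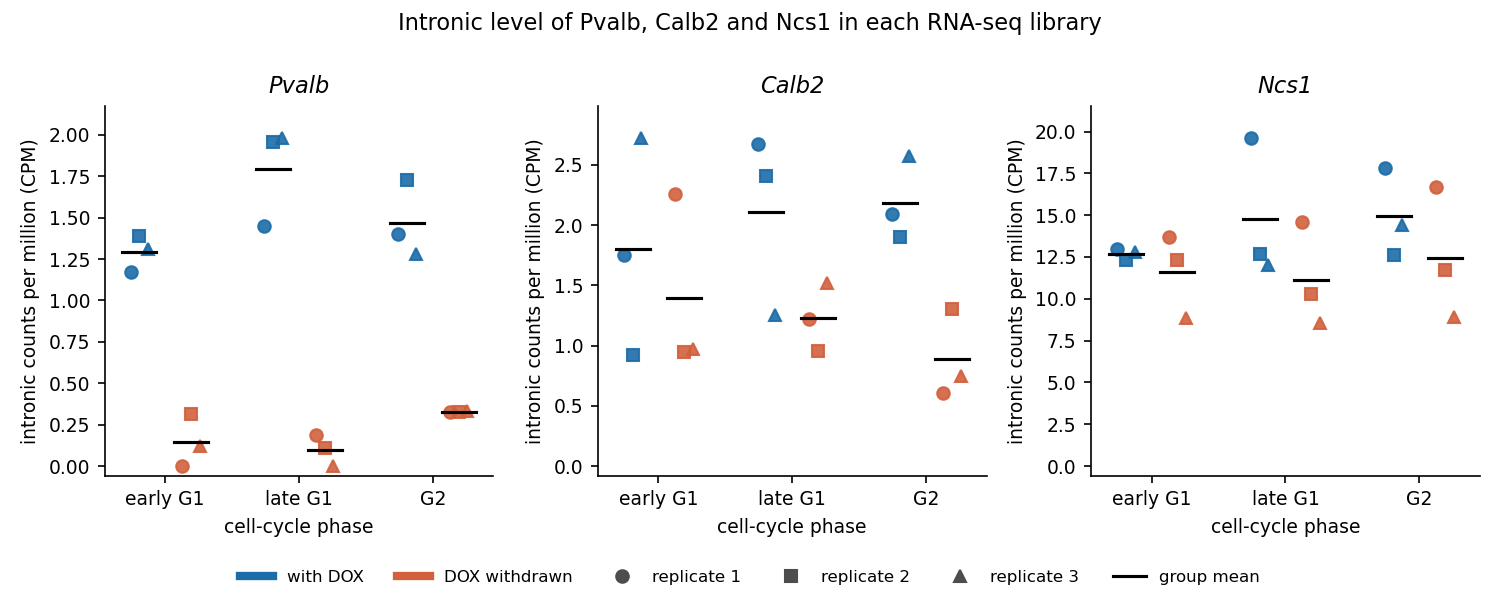
Intronic level in CPM (vertical axes, linear from 0, 1 scale per gene) of the same genes and libraries, with the same colours, shapes and lines. Pvalb separates by DOX in each phase, Calb2 only in G2, and the Ncs1 groups overlap in each phase.

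The next question was whether the genes vary through the cell cycle, a comparison on which they were not selected. Ccna2, the cyclin on which the sorting reporter is built, was higher in G2 than in early G1 by only 0.44 ± 0.16 log2 with DOX and 0.40 ± 0.16 after withdrawal (SE), and neither passed (edgeR adjusted p = 0.9997 and 0.9736), so the phase contrasts below have no RNA check that passed the test. None of the 3 genes passed the test between phases, with DOX or after withdrawal, and no other gene passed in these 6 contrasts (0 of 14092, 0%; edgeR, and 0 by DESeq2). At an unadjusted p under 0.05 they held 136, 319 and 174 genes with DOX and 184, 588 and 356 after withdrawal, for late G1 minus early G1, G2 minus early G1 and G2 minus late G1. In mean exonic level with DOX, Pvalb ranked G2 (4.85 ± 0.903 CPM), late G1 (3.91 ± 0.86) and early G1 (3.90 ± 0.472; SD, n = 3), and the ranges of the 3 phases overlapped. Calb2 with DOX ranked G2 (15.8 ± 0.704 CPM), early G1 (14.9 ± 2.17) and late G1 (14.2 ± 1.4), again with overlap. Ncs1 with DOX ranked early G1 (12.4 ± 1.18 CPM), late G1 (10.8 ± 0.266) and G2 (10 ± 1.47). For Ncs1 the early G1 libraries were all above the late G1 libraries, and the G2 range crossed both.

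The largest phase difference of Ncs1 was G2 minus early G1 with DOX, -0.32 ± 0.15 log2 (SE; edgeR adjusted p = 0.9997, unadjusted p = 0.0536). For Calb2, the phase differences with DOX lay between -0.07 and 0.15 log2, and after withdrawal between -0.06 and -0.02, each with a standard error of 0.15. After withdrawal, mean Calb2 by phase was 8.58 ± 0.709, 8.48 ± 0.506 and 8.26 ± 1.07 CPM and mean Ncs1 7.07 ± 0.537, 7.61 ± 0.519 and 7.08 ± 0.936 CPM (early G1, late G1, G2; SD, n = 3). Residual Pvalb ranked late G1 (0.218 ± 0.0911 CPM), G2 (0.111 ± 0.046) and early G1 (0.0453 ± 0.041). The 3 late G1 libraries held 12 counts, against 3 in early G1, and each was above each early G1 library. This difference of 2.04 ± 0.66 log2 (SE) had an unadjusted p of 0.00804 and did not pass (edgeR adjusted p = 1), and a fitted log2 value on so few counts depends on the prior count.

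Differences in the withdrawal response between phases were tested as interaction terms, and no gene passed (0 of 14092, 0%; edgeR, and 0 by DESeq2), with 36, 64 and 72 genes at an unadjusted p under 0.05. Pvalb had a response smaller in late G1 than in early G1 by 2.04 ± 0.72 log2 and larger in G2 than in late G1, at -1.35 ± 0.63 (SE; edgeR adjusted p = 1 and 0.9999; unadjusted p = 0.0111 and 0.0478). Calb2 interactions lay between -0.20 and 0.05 log2 with standard errors of 0.21, and those of Ncs1 between 0.00 and 0.31 with standard errors of 0.22. The Ncs1 call in early G1 alone is thus no test that its response differed between phases.

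The peaks within 50 kb of the starts differed in place between the genes. Pvalb had 2, on both sides of its start: 1 centred 0.89 kb upstream (mm9 chr15:78035101-78035850) and 1 centred 0.986 kb downstream, inside the gene (chr15:78033151-78034050). The mm9 window from 250 bases before to 50 bases after the counted Pvalb start (chr15:78034537-78034836) touches neither. Among all genes, 39 (0.192%) had 2 or more peaks centred within 1 kb of the start, and 5.86% had at least 1. The downstream Pvalb peak, at 0.986 kb, is only just inside this limit, so the share of 0.192% depends on it. Calb2 also had 2, both past its end and in no gene: 1 centred 37.2 kb downstream of its start (chr8:112654651-112655100) and 1 at 44.7 kb (chr8:112646401-112648500), for which the start of Zfp612 was nearer at 43.8 kb. Ncs1 had 1, centred 45.7 kb upstream (chr2:31055401-31056150) inside the neighbouring gene Gpr107. At least 1 peak within 50 kb was found for 51% of genes, and at least 2 for 29.7%.

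The Ncs1 peak and the farther Calb2 peak were just inside the 50 kb limit. The nearest peaks outside it were at 64.1 kb for Pvalb and at -72.2 kb for Ncs1 (negative: upstream), and Calb2 had no other within 100 kb. With a limit of 20 kb, Pvalb kept 2 peaks and the other genes 0, while 32.4% of all genes had at least 1 and 12.6% at least 2. With 100 kb, the numbers were 4, 2 and 5 for Pvalb, Calb2 and Ncs1, while 66.1% of all genes had at least 1 and 47.6% at least 2. The authors sort peaks into classes 1 to 3, called Bookmarked, and 4 and 5, called Lost, and all 5 peaks within 50 kb are Lost (classes 4, 4, 4, 5 and 5), as are 86.4% of all peaks. A peak in reach of a start was not tested as a regulator of that gene.

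**Figure D3:**
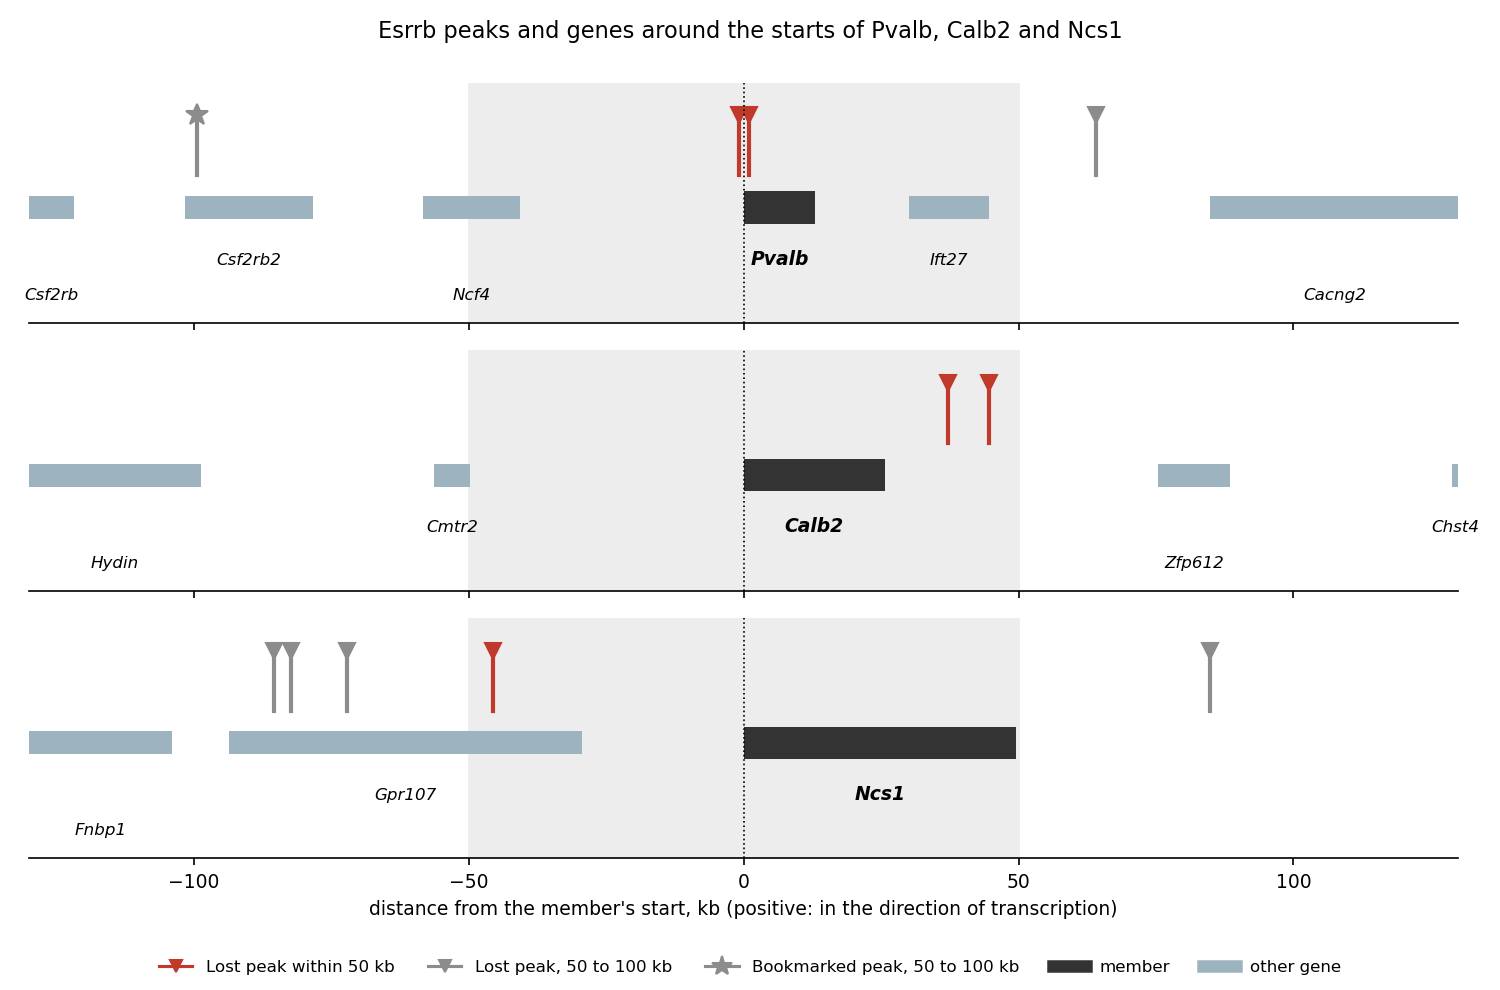
Positions of Esrrb peaks (triangles and star) and of genes (bars) by distance in kb from the starts of Pvalb, Calb2 and Ncs1 (top to bottom), drawn so that transcription runs to the right. The shaded span is 50 kb to either side. The 2 Pvalb peaks flank its start, the 2 Calb2 peaks lie past its end and the Ncs1 peak lies inside Gpr107.

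Esrrb peak heights were deposited as log2 values, which fit reads per kb of peak scaled to the reads of the library (log2 RPKM). At the upstream Pvalb peak, interphase libraries with DOX stood at 1.20, 1.25, 1.69 and 2.21 (replicates 1 to 4) and mitotic ones at 0.17, 0.15, -0.22 and 0.58. After withdrawal the interphase libraries were at -2.73 and -0.75 and the mitotic ones at -0.99 and -1.02. All interphase DOX libraries were above all mitotic ones, and all DOX libraries above those without. The share of all peaks with such a separation was not counted, here or for the peaks below. The downstream Pvalb peak stood at 1.53, 0.98, 2.00 and 4.34 in interphase with DOX, and at -0.30, 0.10, -0.02 and 0.16 in mitosis. Its withdrawal values were -3.58 and -0.60 in interphase and -4.06 and -0.46 in mitosis. Replicate 4 in interphase, the highest value at any of the 5 peaks, came from the library of 10.7 M reads, with 195 reads in the peak.

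The nearer Calb2 peak stood at 1.65, 1.75, 1.69 and 2.06 in interphase with DOX and at -0.62, -0.12, -0.31 and -0.35 in mitosis, and after withdrawal at -1.99 and -0.60 in interphase and -3.06 and -0.87 in mitosis. The farther Calb2 peak stood at 0.63, 1.73, 1.54 and 2.92 in interphase with DOX and at -1.35, -1.06, -0.68 and -0.83 in mitosis, and after withdrawal at -2.63 and -1.60 and at -3.29 and -1.12. At both, interphase with DOX was above every other library. The Ncs1 peak was the lowest of the 5, at 0.35, 0.86, 0.62 and -0.42 in interphase with DOX, a mean at the 3.53 percentile of all peaks. Its mitotic libraries stood at -1.55, -0.66, -0.83 and -2.08, below each interphase DOX library, and its withdrawal libraries at -3.32 and -2.34 in interphase and at -3.95 (0 reads) and -0.83 in mitosis.

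From interphase to mitosis with DOX, all 5 peaks fell. The log2 differences were -1.42 ± 0.49 and -2.23 ± 0.71 (Pvalb, upstream and downstream), -2.14 ± 0.52 and -2.69 ± 0.61 (Calb2, nearer and farther) and -1.63 ± 0.77 (Ncs1) (SE; limma adjusted p = 0.0102, 0.00655, 0.000888, 0.000527 and 0.0467). This was 5 of 5, beside 91.4% of all peaks, whose median difference was -2.26. The Ncs1 call was lost in 7 of 8 fits that each left out 1 library (limma adjusted p up to 0.137; only the fit without interphase DOX replicate 4 kept it) and without both E14Tg2a libraries (-1.67; limma adjusted p = 0.122). The other 4 peaks passed in all 8. On withdrawal in interphase, the 5 peaks fell too, with differences of -3.33 ± 0.60, -4.30 ± 0.87, -3.09 ± 0.64, -3.82 ± 0.75 and -3.18 ± 0.94 in the same order (SE; limma adjusted p between 1.87e-05 and 0.00223), 5 of 5 beside 99.6% of all peaks and a median of -3.74.

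On withdrawal in mitosis, differences were -1.17 ± 0.60, -2.25 ± 0.87, -1.62 ± 0.64, -1.22 ± 0.75 and -1.11 ± 0.94 (SE), and none of the 5 passed (limma adjusted p between 0.061 and 0.349), beside 22.4% of all peaks and a median of -1.33. The 2 mitotic withdrawal libraries differed widely except at the upstream Pvalb peak. Without replicate 2, 4 of the 5 peaks passed (all but the upstream Pvalb peak) and 7109 of all peaks were called, and without replicate 1 none of the 5 passed and 0 of all peaks. When each library was centred on its median peak height, none of the 5 peaks passed in any of the 3 contrasts, and 8 of their differences changed sign, among them all 3 of the upstream Pvalb peak and all 3 of the Ncs1 peak. The 5 peaks were thus not set apart by these tests from the change in all peaks.

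**Figure D4:**
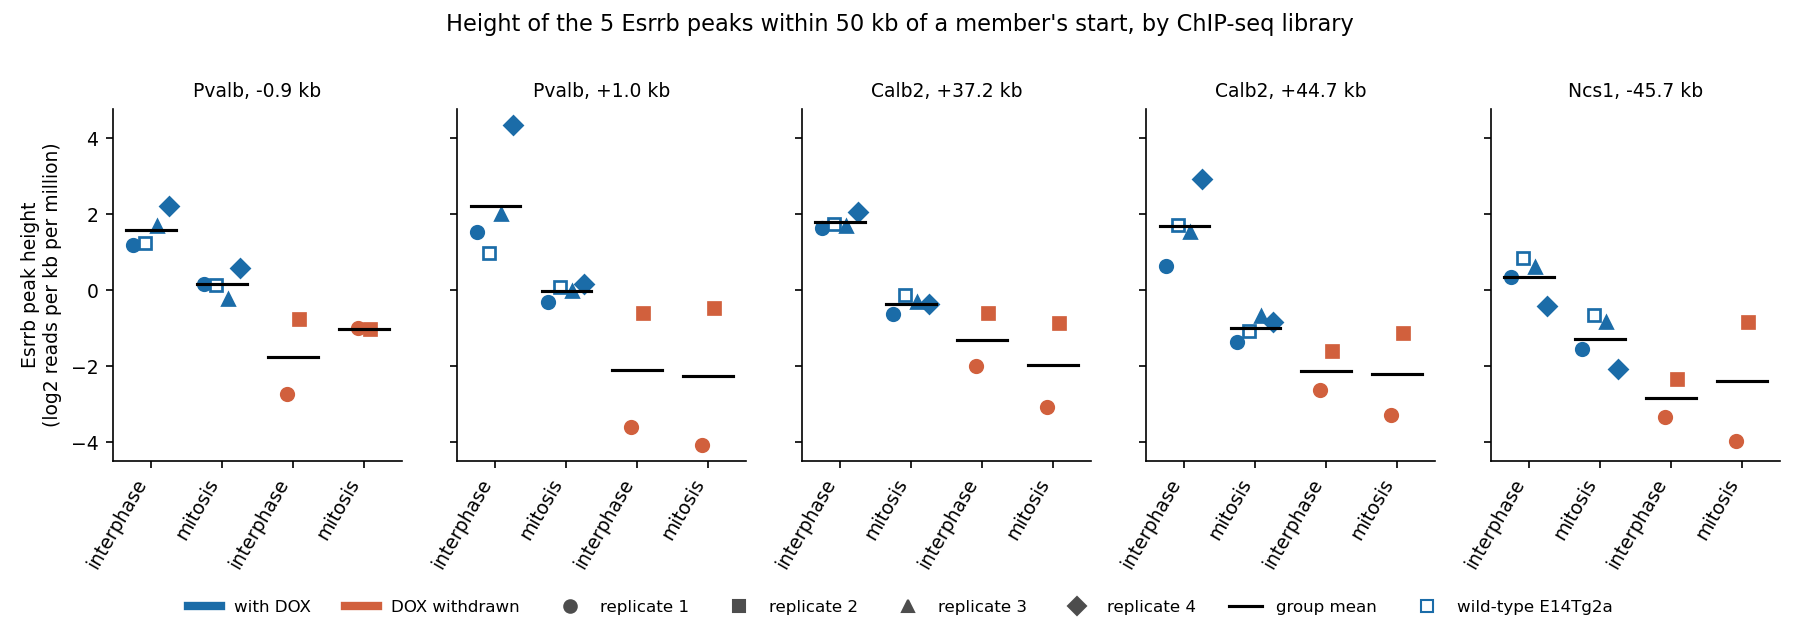
Height of the 5 Esrrb peaks within 50 kb (log2 scale, shared vertical axis) in 12 ChIP-seq libraries, in interphase and mitosis with DOX (blue) and after 48 h of withdrawal (orange). Points are libraries, with open squares for wild-type E14Tg2a, and black lines are group means. At each peak every interphase DOX library is above every mitotic DOX library, and the mitotic withdrawal libraries spread from -4.06 to -0.46.

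Of 13 other genes with a start within 200 kb of the 3 starts, 6 passed the filter, and none of these passed in any phase, with or without the replicate block (edgeR). Beside Pvalb, Ift27, a subunit of the intraflagellar transport machinery, had log2 changes of -0.16 ± 0.19, -0.32 ± 0.19 and -0.14 ± 0.19 in early G1, late G1 and G2 (SE). Around Calb2, the values were -0.26, -0.02 and -0.21 for Cmtr2, an mRNA cap methyltransferase, 0.47, 0.20 and 0.00 for Hydin, a protein of motile cilia, and -0.23, -0.12 and -0.17 for the zinc finger gene Zfp612. Near Ncs1, Fnbp1, which links membranes to actin, stood at 0.52, 0.47 and 0.51, the opposite sign to Ncs1, and Gpr107, whose gene body holds the Ncs1 peak, at -0.25, -0.22 and -0.25 with standard errors of 0.12.

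Other calcium-handling genes were read from 3 lists. The first held 24 relatives of the 3 genes, such as calbindin, oncomodulin, the visinin-like and hippocalcin-like sensors and the Kv channel-interacting proteins, of which 14 passed the filter. None rose or fell in any phase. In each phase 4 were higher and 10 lower, with a median log2 change of -0.266, -0.244 and -0.326 in early G1, late G1 and G2, beside 0.00, 0.001 and -0.013 over all genes tested. The relatives with most counts, the sensor Hpcal1 (-0.17, -0.22 and -0.28), the neuronal calcium binder Necab2 (-0.31, -0.08 and 0.23) and Cabp1 (-0.23, -0.17 and -0.32), did not pass. With the replicate block, 0, 1 and 1 relatives fell and 0, 0 and 1 rose (1 of 14 is 7.14%, beside 4.24% and 5.44% of all genes that fell in late G1 and G2 and 5.77% that rose in G2): Kcnip3, a calcium sensor of Kv channels also known as a transcriptional repressor, in late G1 (-0.72 ± 0.19) and G2 (-1 ± 0.19; edgeR adjusted p = 0.0268 and 0.00368), and Scgn, secretagogin, higher in G2 (1.33 ± 0.41; edgeR adjusted p = 0.043).

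The second list held 54 genes taken as other EF-hand proteins, 40 of them tested, and 2 fell, both in G2. Whether each product holds EF-hands, that of S100pbp among them, was not checked. Rcn1, a calcium binder of the endoplasmic reticulum, went from 90 ± 6.62 to 55.7 ± 4.36 CPM in G2 (SD, n = 3), a fall of 0.69 ± 0.12 log2 (SE; edgeR adjusted p = 0.0106). Its values of -0.51 (early G1) and -0.48 (late G1) did not pass (edgeR adjusted p = 0.125 and 0.0948), but did with the replicate block (0.00933 and 0.00861) and by DESeq2 (0.011 and 0.016). Micu2, a gatekeeper of the mitochondrial calcium uniporter, went from 8.23 ± 0.629 to 5.11 ± 0.213 CPM in G2 (SD, n = 3), a fall of 0.68 ± 0.15 (SE; edgeR adjusted p = 0.0355). Its call was lost in 6 of 6 fits that left out 1 library and that of Rcn1 in 4 of 6 (edgeR adjusted p up to 0.18 and 0.063). With the block, 3, 2 and 3 of the 40 fell (7.5%, 5% and 7.5%, beside 2.2%, 4.24% and 5.44% of all genes) and 0, 1 and 2 rose (0%, 2.5% and 5%, beside 1.83%, 4.8% and 5.77%). Beside Rcn1 and Micu2 these were falls of S100a14 in all 3 phases and of S100a1 in early G1, and rises of Ppp3r1, the calcineurin regulatory subunit, in late G1 and of S100a11 and Calml4 in G2. The list medians were -0.068, -0.038 and -0.153.

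The third list held 42 genes taken as calcium channels, pumps and stores, the lipid kinase gene Pi4kb among them. Of these, 38 were tested and 1 fell. Atp2b2, a calcium pump of the plasma membrane, went from 3.90 ± 0.548 to 1.09 ± 0.516 CPM in G2 (SD, n = 3), a fall of 1.89 ± 0.36 log2 (SE; edgeR adjusted p = 0.018), while -1.15 (early G1) and -1.64 (late G1) did not pass (0.231 and 0.0516). With the block both did (edgeR adjusted p = 0.0483 and 0.00751), and by DESeq2 the late G1 value did (adjusted p = 0.00219). The G2 call was lost in 3 of 6 fits that left out 1 library, among them that without withdrawn replicate 1 (edgeR adjusted p = 0.109). Chaperones that bind calcium in the endoplasmic reticulum had most counts, with Canx at 990 ± 48.7 CPM with DOX and 971 ± 35.8 without in early G1 (SD, n = 3), and their changes did not pass. With the block, 1, 3 and 2 of the 38 rose (2.63%, 7.89% and 5.26%, beside 1.83%, 4.8% and 5.77% of all genes) and 1 fell in each phase (2.63%, beside 2.2%, 4.24% and 5.44%), shares near those of all genes. The rises were those of Atp2c1, a calcium pump of the Golgi, in all 3 phases (0.36, 0.43 and 0.35), Itpr3, an IP3 receptor, in late G1 and G2 (0.49 and 0.50) and Casq1, calsequestrin of muscle, in late G1 (1.51). The medians of this list, -0.012, -0.003 and -0.032, were close to those of all genes.

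**Figure D5:**
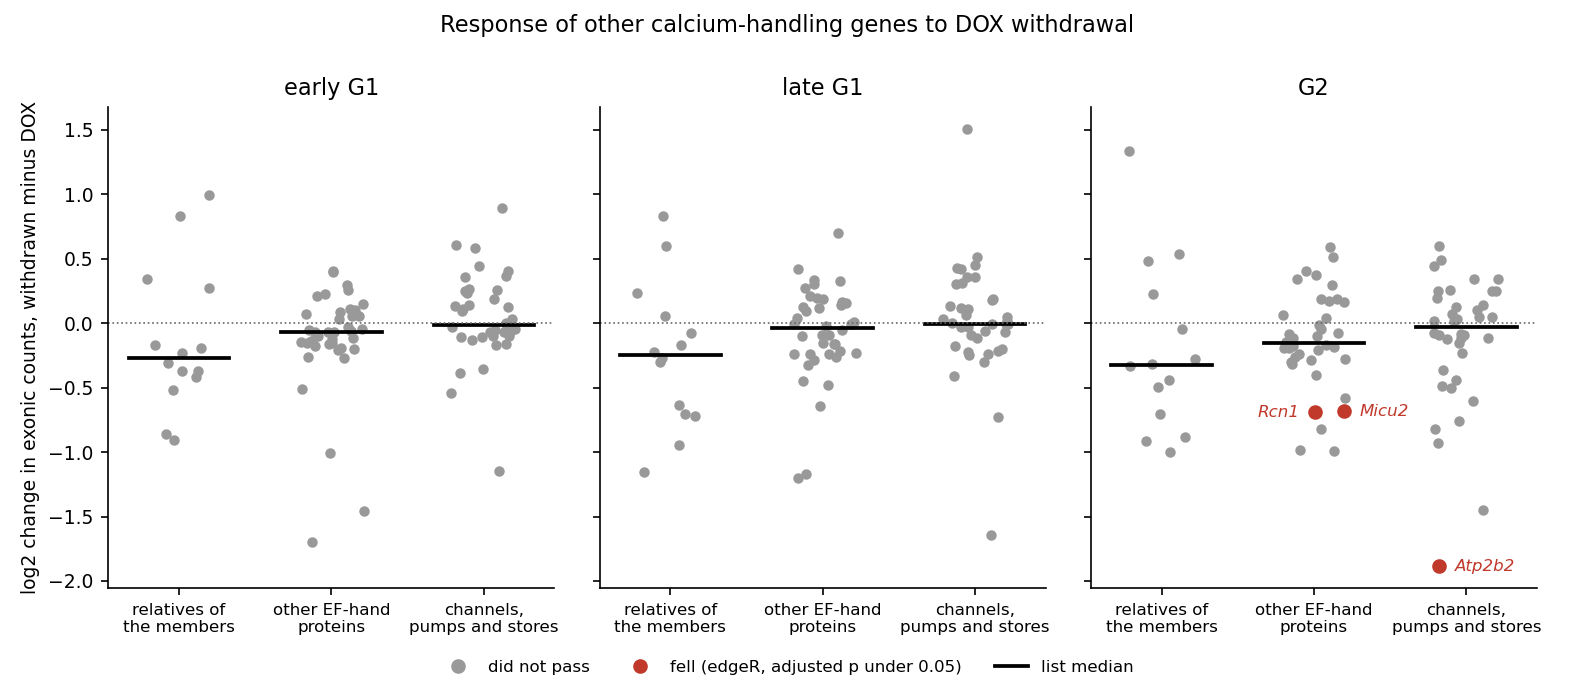
Log2 change in exonic counts (vertical axis, withdrawn minus DOX) of the tested genes of 3 calcium lists in early G1, late G1 and G2. Each point is 1 gene, red where it fell by the edgeR test, and each black line is the list median. The 3 red points, Rcn1, Micu2 and Atp2b2, are all in G2, and the median of the relatives lies between -0.326 and -0.244.

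Pearson correlation of log2 CPM over the 18 libraries was used to name the genes most like each member, among the 10676 genes (itself left out where it was 1 of them) with a mean log2 CPM of at least 2. For Pvalb these were Raver2, an RNA-binding protein (r = 0.962), Ly6g6e of the Ly6 family (0.957), Kdelr3, a retrieval receptor of the secretory pathway (0.955), Ldhb, a lactate dehydrogenase subunit (0.953), and Mmp17, a membrane-type metalloproteinase (0.95). For Calb2 they were Raver2 (0.941), Ly6g6e (0.941), St8sia1, a sialyltransferase (0.94), Trf, transferrin (0.939), and Gjc1, a gap junction protein (0.938), so that Raver2 and Ly6g6e stood at the head of both. Ncs1 had lower values, with Clic1, an intracellular chloride channel protein (0.912), Pttg1ip (0.91), Hebp1, a heme-binding protein (0.908), Sord, sorbitol dehydrogenase (0.904), and Scarb1, a lipoprotein receptor (0.903). The 18 points share the DOX states, phases and replicate numbers, so these values describe a shared order of libraries. The 3 genes themselves correlated at 0.95 (Pvalb and Calb2), 0.888 (Pvalb and Ncs1) and 0.838 (Calb2 and Ncs1). They were chosen on their response to withdrawal in these libraries, and that choice favours high values, which are only a description. Correlations within a DOX state were not computed. With the mean of each replicate number subtracted, 2, 1 and 0 of the 5 named genes remained among the first 5 for Pvalb, Calb2 and Ncs1.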

How the data were processed

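Gene-level exonic and intronic counts of 18 RNA-seq libraries and a table of Esrrb peaks with log2 heights in 12 ChIP-seq libraries were deposited by the authors. The submitters' processing notes name mm9, CASAVA 1.8, Bowtie and DESeq2 with no roles; their use for read assignment and peak calling is not given in these sources. The 3 genes, the calcium and marker lists and the tests were chosen with earlier results of these data known.

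Counts were tested with edgeR 4.0.16 (R 4.3.3; filterByExpr, TMM, quasi-likelihood F test, 1 fit of 6 group means, 12 residual degrees of freedom, Benjamini-Hochberg at 0.05 over 14092 exonic or 14075 intronic genes). A total of 2377 intronic lines without a gene name were left out. Deposited log2 heights were tested with limma 3.58.1 (trend, all 14559 peaks). For 100.0% of heights, read numbers recovered from the log2 values were whole within 0.05 reads. Peak table columns headed "noco" were read as same-numbered mitotic libraries, which the labels do not spell out. The scripts were tested on simulated data.

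Same-numbered RNA-seq libraries deviated together in every pair of groups that a withdrawal or phase contrast compares (lowest correlation of deviations 0.106 in exons and 0.171 in introns). Among the pairs of groups that differ in both phase and DOX, which no such contrast compares, early G1 withdrawn with late G1 DOX reached down to -0.143 in exons, and early G1 DOX with G2 withdrawn to 0.0714 in exons and 0.00391 in introns. This is a link read from the data and not stated by the labels, so blocked values stand beside results they change. Alternatives were DESeq2 1.42.0, its size factors, no filter, only the compared groups, the block, left-out libraries and, for peaks, no trend, no E14Tg2a, median centring, high peaks only and, chosen after seeing the data, edgeR on recovered reads. Named genes are the 3 genes, the 5 most similar to each, the called and 3 highest genes of each list, tested neighbours within 200 kb, Esrrb and Ccna2; genes called only with the block were named after their values were seen. Ccna2, on which the reporter is built, did not pass in any withdrawal or phase contrast. Protein comparisons and the Calb2 promoter were not analysed here, and the highest genes of the EF-hand list are not reported here.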

Additional observations from a re-analysis of the deposited data

How the results depend on the processing

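With the replicate number as a block, edgeR called 568, 1274 and 1580 genes for exonic withdrawal in early G1, late G1 and G2 and 67, 89 and 228 in introns, in place of 23, 65 and 137 and of 0, 2 and 2; beside the calls given above it changed no other call of a named gene. DESeq2 called 135, 332 and 451 in exons and 13, 15 and 41 in introns. With only the compared groups the counts were 6, 2 and 25 in exons and 0 in introns for late G1 and G2, and without the filter 14 in exons for early G1. Leaving out 1 library gave 4 to 16, 11 to 38 and 21 to 157 genes in exons, and 0 to 2 (late G1) and 0 to 4 (G2) in introns. With only the compared groups, the G2 calls of Rcn1, Micu2 and Atp2b2 were lost (edgeR adjusted p = 0.0795, 0.196 and 0.111) and that of Esrrb in late G1 (0.0558), and without the filter that of Micu2 (0.0805).

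Small phase differences changed sign: Pvalb late G1 minus early G1 with DOX was 0.00 with only the compared groups and -0.02 with the block, and Ncs1 G2 minus early G1 after withdrawal was 0.00 with the size factors of DESeq2 and 0.01 without the filter. When 1 library was left out, Calb2 ranged from -0.15 to 0.05 (late G1 minus early G1) with DOX, and after withdrawal from -0.08 to 0.02 (late G1 minus early G1), -0.14 to 0.05 (G2 minus early G1) and -0.12 to 0.08 (G2 minus late G1). Its interaction of late and early G1 ranged from -0.07 to 0.12. Pvalb late G1 minus early G1 with DOX ranged from -0.11 to 0.17, Ncs1 after withdrawal from -0.08 to 0.11 (G2 minus early G1) and -0.18 to 0.02 (G2 minus late G1), and its G2 and late G1 interaction from -0.07 to 0.13. None of these passed in any fit.

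Heights centred on the median of each library left 499, 483 and 6 peaks called for mitosis, withdrawal in interphase and withdrawal in mitosis, in either direction, in place of 13314, 14500 and 3256. The median shifts were -2.26, -3.74 and -1.33. Centred differences were 0.70, 0.33 and 0.22 at the upstream Pvalb peak and 0.48, 0.47 and 0.28 at the Ncs1 peak, 0.57 at the nearer Calb2 peak for withdrawal in interphase and 0.17 at the farther one for withdrawal in mitosis. Among peaks above the median height, 7176 and 7279 were called for the first 2 contrasts, with fewer peaks tested. edgeR on recovered reads called 13484, 14509 and 0 peaks. For withdrawal in mitosis, 238 peaks were called without the trend, 655 without E14Tg2a and 0 to 7109 when 1 library was left out, with the Ncs1 peak between -2.67 and 0.45. The causes were not tested. Same-numbered ChIP-seq libraries did not pair (correlations of deviations 0.469, -0.306, 0.238 and 0.117), and with the replicate block the mitosis calls of the 5 peaks did not change.

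Depth limits the residual Pvalb after withdrawal, 3 to 12 counts per group, and intronic Pvalb and Calb2. The 3 RNA-seq libraries per group and 2 withdrawal ChIP-seq libraries per group limit precision further.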

Other observations

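Hydin, a gene of motile cilia upstream of Calb2, had far more signal in introns than in exons. Its intronic level was 23400 to 64800 CPM over the 18 libraries, against 5.29 to 10.8 CPM in exons. Each was scaled by the TMM-adjusted library size of its own table. The early G1 libraries with DOX averaged 38300 ± 23000 CPM in introns and 6.56 ± 1.79 in exons (SD, n = 3). Intronic means were 30500, 28700 and 27600 CPM after withdrawal and 38300, 33500 and 34700 with DOX in early G1, late G1 and G2, and the groups overlapped in each phase. The higher means with DOX rest on replicate 1, at 64800, 51600 and 50500 CPM. Replicates 2 and 3 with DOX lay between 23400 and 28100 CPM.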
